A study of Mus musculus with 3 samples.

Results

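The genes described here are 9 genes that build or mark the epithelium of the thymus: the transcription factor genes Foxn1, Pax1, Pax9 and Trp63, the self-antigen regulators Aire and Fezf2, the protease gene Prss16, and the surface molecule genes Ly75 and Epcam. They were taken by symbol from 52636 gene identifiers, and all 9 were found. RNA-seq gene counts of 3 normal thymi were used, the control side of a study of T cell lymphomas that lack Cic. The labels give strain C57BL/6, homozygous floxed Cic alleles and tamoxifen for all 3, and name no Cre. Age and sex are not given in the sources used, and the lymphomas are not analysed here. Nothing in the labels says that the libraries come from separate animals, so the p-values cover only how far these 3 samples differ, part of which may be technical.

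Thymic epithelium is the stroma in which T cells are selected. FOXN1, the forkhead factor mutated in nude mice, directs its differentiation, and the cortex and medulla then divide the work. Cortical epithelial cells present the peptides that rescue developing T cells, and PRSS16 is a serine protease of that antigen pathway. Medullary cells use AIRE and FEZF2 to express genes of other tissues, which removes self-reactive T cells. PAX1 and PAX9 pattern the pharyngeal pouches from which the organ arises.

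The libraries, named thymus 1, 2 and 3 after the labels, had between 25408442 and 30414788 reads on the transcribed strand of genes. Levels are in CPM, counts per 1000000 reads assigned to genes after TMM scaling between libraries, and 3 counts correspond to 0.0985 to 0.122 CPM. CPM per kilobase of exon is used wherever different genes are compared. Libraries also differed in a trend with transcript GC content: across 16522 genes, which are not independent, Spearman's correlation of GC content with each gene's departure from its mean over the thymi was -0.157, 0.409 and -0.288 in thymus 1, 2 and 3. In whole-organ RNA, fewer cells of a type and less RNA per cell cannot be told apart.

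The promoters of Foxn1, Aire and Pax1 are shown because these genes were high and low in the same thymi in the values given further on, and because FOXN1 is known to bind DNA with the core GACGC. Each window holds the 250 bases before a RefSeq start site on GRCm38.p6, read 5′ to 3′ on the gene's strand, with GACGC or its complement GCGTC in capitals.
Foxn1, chr11:78386609-78386858, minus strand: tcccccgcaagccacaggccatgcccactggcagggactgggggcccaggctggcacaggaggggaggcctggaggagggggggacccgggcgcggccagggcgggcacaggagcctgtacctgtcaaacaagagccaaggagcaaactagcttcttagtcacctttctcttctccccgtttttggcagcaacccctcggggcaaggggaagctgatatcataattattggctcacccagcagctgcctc
Aire, chr10:78043611-78043860, minus strand: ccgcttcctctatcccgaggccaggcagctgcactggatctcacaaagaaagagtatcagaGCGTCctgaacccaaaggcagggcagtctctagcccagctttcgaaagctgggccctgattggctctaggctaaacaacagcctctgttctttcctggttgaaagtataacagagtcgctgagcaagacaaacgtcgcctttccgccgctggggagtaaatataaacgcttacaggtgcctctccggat
Pax1, chr2:147364744-147364993, plus strand: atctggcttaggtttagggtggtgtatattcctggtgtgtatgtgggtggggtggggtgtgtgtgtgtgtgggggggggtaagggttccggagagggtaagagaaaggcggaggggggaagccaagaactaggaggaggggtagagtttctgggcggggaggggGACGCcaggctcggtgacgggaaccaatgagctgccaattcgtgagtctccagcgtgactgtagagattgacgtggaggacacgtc

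Windows for 7 of the 9 genes were in the RefSeq table; Prss16 and Trp63 were not matched. The core occurred in 3 of the 7, once each in Aire, Fezf2 and Pax1, and not in the windows of Foxn1, Pax9, Ly75 or Epcam. In Pax1 it lay 86 to 82 bases before the RefSeq start on the gene's strand. In Aire it lay 189 to 185 bases before that start and in Fezf2 179 to 175, both on the opposite strand. The windows of Pax1, Pax9 and Fezf2 lie inside these genes as GENCODE M21 places them, not before their outermost start. The Fezf2 window holds 94 bases and the Ly75 window 30 bases of the gene's own GENCODE exons. Of 32851 promoter windows of this length, 22.6% held the core on either strand. Among the 13478 windows with a GC content of at least 55%, 41.0% did. The Foxn1, Aire, Fezf2 and Pax1 windows had GC contents of 63.2%, 53.2%, 61.2% and 58.8%. A match describes these letters and is not evidence of binding.

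All 9 genes exceeded 1 CPM in every thymus, and 8 of them, all but Fezf2, exceeded 10 CPM in every thymus. Their levels spanned a wide range per kilobase of exon. Prss16 stood far above the others at 216 ± 12.4 CPM per kilobase (SD, n = 3), higher than 99.2% of the 16548 genes tested. The next gene by this measure, Ly75, was 9.83-fold lower. Pax9 was lowest at 2.98 ± 0.128 CPM per kilobase, still above 40.3% of the genes tested.

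**Figure D1:**
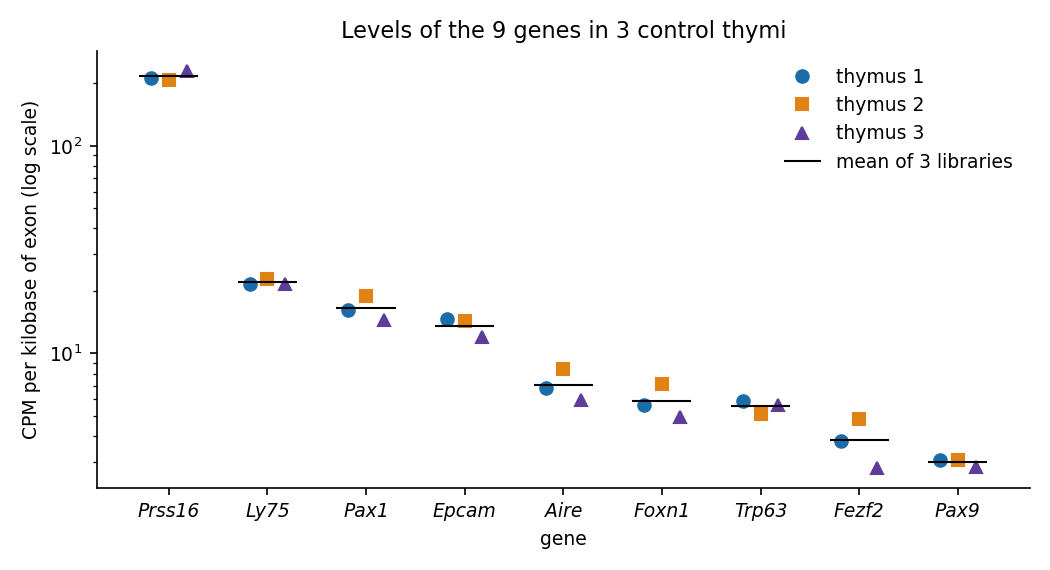
Levels of the 9 genes in the 3 control thymi, in CPM per kilobase of exon on a log axis, one symbol per library, with the mean as a bar. Prss16 lies between 207 and 230, and the other 8 genes lie between 2.81 and 22.8.

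The order per kilobase was Prss16, Ly75, Pax1, Epcam, Aire, Foxn1, Trp63, Fezf2 and Pax9. Neighbours whose ranges over the 3 thymi did not overlap were Prss16 and Ly75, Ly75 and Pax1, Epcam and Aire, and Trp63 and Fezf2. The ranges overlapped for Pax1 and Epcam, Aire and Foxn1, Foxn1 and Trp63, and Fezf2 and Pax9. Pax1 nevertheless exceeded Epcam, and Aire exceeded Foxn1, within each of the 3 libraries. Foxn1 exceeded Trp63 in 1 of 3. With the longest transcript as length in place of merged exons, Trp63 was 1.52 times Foxn1. With merged exons it was 0.971 ± 0.227 times Foxn1 (SD, n = 3). The order of that pair therefore depends on the length used, and so does that of Ly75 and Pax1. For Pax1 the longest transcript has 2643 bases against 4492 of merged exons, and for Ly75 6901 against 6905. By the longest transcript, Pax1 stood above Ly75 on average.

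Foxn1 (chromosome 11, 78357577 to 78386558, minus strand, GENCODE M21 on GRCm38) is the master regulator of the lineage. It had 554, 670 and 390 reads, or 18.2, 22.8 and 15.8 CPM, in thymus 1, 2 and 3. Thymus 2 was high and thymus 3 low, and the highest value was 1.44 times the lowest. Its mean was 18.9 ± 3.56 CPM (SD, n = 3).

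The paired-box genes of the pharyngeal pouch differed in level. Pax1 (chromosome 2, 147361925 to 147393295, plus strand) was at 72.5, 85.0 and 64.8 CPM in thymus 1, 2 and 3, again with thymus 2 high and thymus 3 low. Pax9 (chromosome 12, 56691767 to 56712822, plus strand) was at 15.4, 15.5 and 14.3 CPM, nearly level across the thymi. Per kilobase, Pax1 exceeded its relative Pax9 by 5.29, 6.18 and 5.09 times in thymus 1, 2 and 3. That ratio averaged 5.52 ± 0.580 (SD, n = 3).

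Trp63 (chromosome 16, 25683763 to 25892102, plus strand) encodes p63, the p53 relative that maintains progenitors of stratified epithelia. It was at 49.7, 42.6 and 47.4 CPM in thymus 1, 2 and 3, and so was lowest in the thymus in which Foxn1 was highest. The ratio of Trp63 to Foxn1 per kilobase was 1.05, 0.716 and 1.15. The 95% counting interval in thymus 2, 0.651 to 0.787, lay apart from those of thymus 1 (0.9497 to 1.16) and thymus 3 (1.02 to 1.29).

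Aire (chromosome 10, 78030022 to 78043610, minus strand) had 794, 943 and 565 reads, or 26.1, 32.1 and 22.9 CPM, in thymus 1, 2 and 3. Its highest value was 1.40 times its lowest. Fezf2 (chromosome 14, 12342094 to 12348189, minus strand) had 353, 431 and 211 reads, or 11.6, 14.7 and 8.55 CPM. It had the widest spread of the 9 genes, 1.72 times between thymus 2 and thymus 3, and a coefficient of variation of 26.4%. The median over all genes tested was 9.06%. Both medullary regulators were highest in thymus 2 and lowest in thymus 3.

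Aire kept a nearly constant proportion to Foxn1. Per kilobase the ratio was 1.20, 1.18 and 1.22 in thymus 1, 2 and 3, a mean of 1.20 ± 0.0175 (SD, n = 3), although the highest over the lowest level was 1.40 for Aire and 1.44 for Foxn1. The counting intervals were 1.08 to 1.34, 1.07 to 1.31 and 1.07 to 1.39, wider than the differences between the thymi. The ratio of Fezf2 to Aire was 0.558, 0.574 and 0.469, with overlapping counting intervals. The smallest p that an exact sign-flip test allows with 3 libraries is 0.25 (two-sided), and the ratios are therefore a description.

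Prss16 (chromosome 13, 22002173 to 22009742, minus strand), the thymus-specific serine protease, had 26997, 25411 and 23780 reads, or 886, 865 and 963 CPM, in thymus 1, 2 and 3. Its highest value was in thymus 3, where Foxn1 was lowest. Per kilobase it exceeded Foxn1 by 37.4, 29.1 and 46.9 times in thymus 1, 2 and 3. The counting intervals of the 3 libraries, 34.4 to 40.8, 27.0 to 31.5 and 42.4 to 51.9, did not overlap.

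Ly75 (chromosome 2, 60292103 to 60383303, minus strand) encodes DEC-205, an endocytic receptor of cortical epithelium and dendritic cells. It was at 149, 158 and 149 CPM in thymus 1, 2 and 3, the smallest spread of the 9 genes, with a coefficient of variation of 3.33%. Epcam (chromosome 17, 87635979 to 87651129, plus strand), the epithelial cell adhesion molecule, was at 32.0, 31.4 and 26.3 CPM, and was low in thymus 3. Per kilobase the ratio to Foxn1 was 3.82, 3.22 and 4.38 for Ly75 and 2.58, 2.02 and 2.43 for Epcam.

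**Figure D2:**
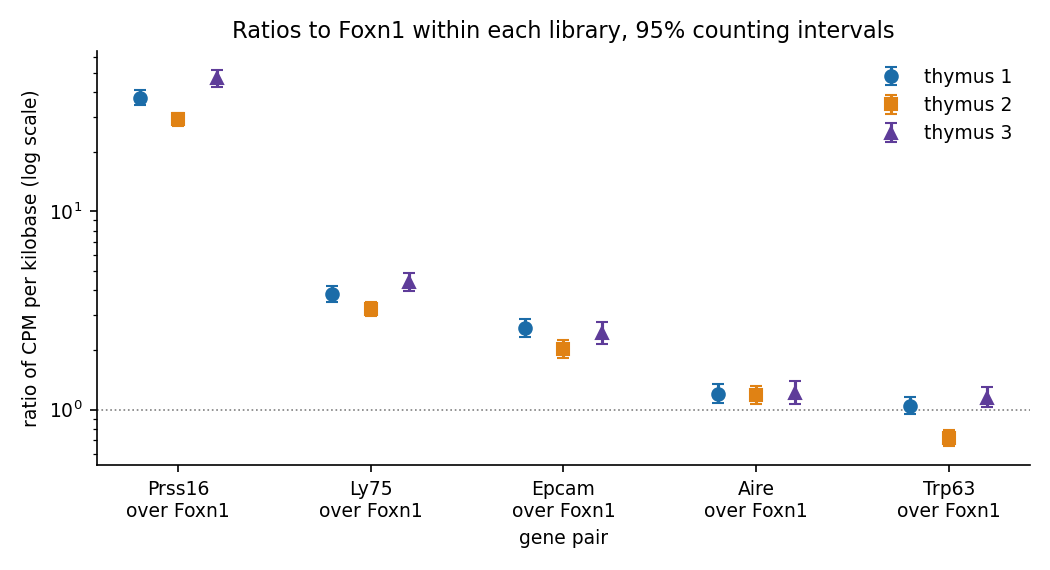
Ratio of each gene to Foxn1 within the same library, from CPM per kilobase, on a log axis, one symbol per library. Bars are 95% binomial intervals, which cover counting error only. Aire stays between 1.18 and 1.22 times Foxn1, and Prss16 ranges from 29.1 to 46.9 times.

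Reads lay almost wholly on the genes' own strands. The share on each gene's own strand, out of both stranded columns, was 97.9% to 100% over the 9 genes and 3 libraries. Pax1 had the lowest shares, with 36, 38 and 34 reads on the other strand, where the noncoding gene AI646519 overlaps it. Exons of Slc25a21, Dnmt3l and Gm13571 overlap Pax9, Aire and Ly75 on the other strand, with at most 32 reads on their own strand in a library. Of the 50-base stretches of each gene, none in Foxn1, Trp63, Fezf2, Prss16 or Epcam and at most 3.50% (Pax9) occurred in a transcript of another gene on either strand.

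Whether any of the 9 genes was more variable across the 3 thymi than expected for its abundance was tested over all 16548 genes. Of the 9, 0 were called (edgeR quasi-likelihood, Benjamini-Hochberg threshold 0.05), where 0.0604% of all genes were. The DESeq2 dispersion check and goodness of fit at the trended dispersion also called 0 of the 9. At an unadjusted p under 0.05 there was 1 of the 9, Fezf2, where 4.42% of all genes were. Its adjusted p was 0.984 by the quasi-likelihood test of edgeR, and 0.246 to 0.984 over the alternatives.

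Counting noise alone was exceeded by 8 of the 9 genes, where 43.4% of all genes did (Poisson goodness of fit, edgeR, Benjamini-Hochberg 0.05). Deep counts make this call easier, and Prss16 has the deepest. Pax9 did not pass (adjusted p = 0.60, edgeR goodness of fit). Without thymus 2 the count was 4 of the 9: Pax1, Fezf2, Prss16 and Epcam. Over all genes it also fell, from 7188 to 4348. Without thymus 1 it was 8 of the 9, with 6579 over all genes, and without thymus 3 it was 7, with 3768 over all genes.

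The direction of the differences was shared by many of the genes. Of the 9, 7 were lowest in thymus 3, where 38.9% of all genes tested were, and Prss16 and Trp63 were the others. Highest in thymus 2 and lowest in thymus 3 were 6 of the 9, where 25.4% of all genes were: Foxn1, Aire, Fezf2, Pax1, Pax9 and Ly75. The median log2 deviation from the gene mean was -0.02, 0.08 and -0.18 in thymus 1, 2 and 3 over the 9 genes, and 0.000, 0.004 and -0.002 over all genes tested. Ly75 was no longer lowest in thymus 3 with DESeq2 size factors or with unstranded counts, each of which left 6 of the 9.

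**Figure D3:**
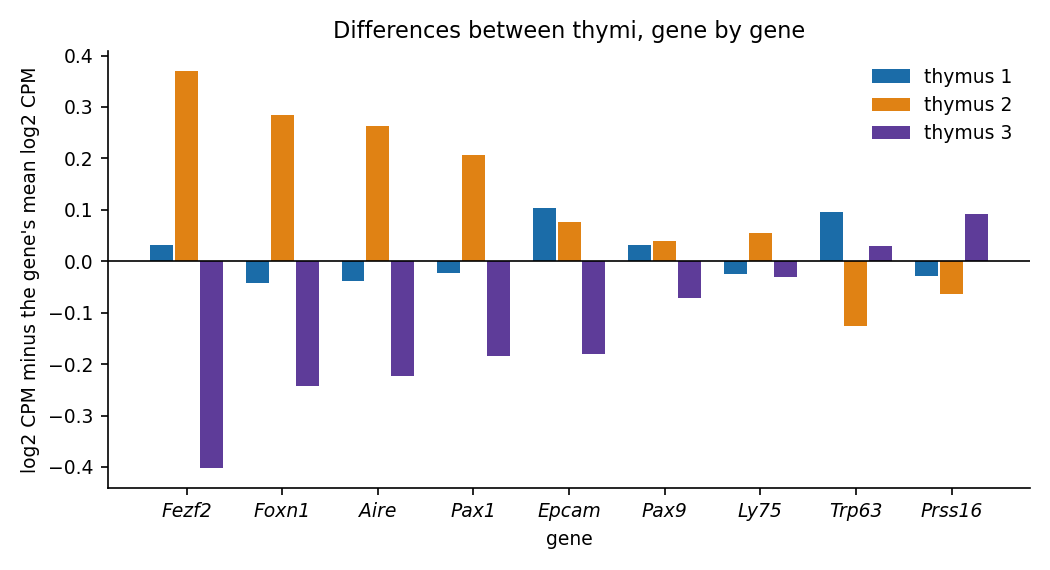
Difference of log2 CPM from the gene's mean over 3 thymi, one bar per library, for the 9 genes. Fezf2, Foxn1, Aire and Pax1 are high in thymus 2 and low in thymus 3, whereas Prss16 is highest in thymus 3 and Trp63 is lowest in thymus 2.

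These differences stand beside the GC trend. With that trend removed, the log2 deviations of Foxn1 were -0.02, 0.22 and -0.20 in thymus 1, 2 and 3, against -0.04, 0.28 and -0.24 before. Those of Aire were -0.01, 0.19 and -0.17, and those of Fezf2 0.05, 0.31 and -0.36. Prss16 stayed highest in thymus 3, at 0.13. The number lowest in thymus 3 was again 7 of the 9, where 38.5% of all genes were. The 4 genes of highest GC content, Aire (58.2%), Pax1 (57.1%), Foxn1 (56.5%) and Fezf2 (55.9%), are the 4 that were most clearly high in thymus 2 and low in thymus 3. Those of lowest GC content, Trp63 (44.2%), Ly75 (45.5%) and Pax9 (46.7%), moved little or in another order. Between them lie Prss16, at 54.0%, which was lowest in thymus 2 and highest in thymus 3, and Epcam, at 52.7%. The part of GC content in these differences beyond the removed trend was not tested.

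The genes closest to Foxn1 in pattern, by Euclidean distance of log2 deviations over the 3 libraries among 9351 protein-coding genes of at least 10 CPM, were Iqsec1, Carm1, Nabp2, Ucp2 and Ckb, at distances of 0.015 to 0.029. Aire was the next, at rank 6 of 9351. Pax1 had rank 105, Fezf2 731, Epcam 1676, Pax9 2659, Ly75 2759, Prss16 6780 and Trp63 7238. A total of 107 genes lay within a distance of 0.1, so 3 libraries single out no gene. Closest to Prss16 were Rangap1, Zfp639, Plpp5, Suds3 and Tle1, with 2418 genes within 0.1, while Foxn1 had rank 9171.

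Other epithelial genes were read from lists. Cortical epithelial genes were all above 10 CPM in every thymus (10 of 10), led per kilobase by the cathepsin gene Ctsl (165 ± 14.3 CPM per kilobase), Tbata (154.5 ± 24.2) and the chemokine gene Ccl25 (91.7 ± 8.39). Prss16, at 216 ± 12.4 CPM per kilobase, was above all 3 on average (SD, n = 3 each). Among these 10, 2 were lowest in thymus 3, where 38.9% of all genes tested were: Tbata and the Notch ligand gene Dll4. Dll4, which commits progenitors to the T lineage, was at 14.4, 14.7 and 11.5 CPM in thymus 1, 2 and 3.

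Medullary genes were led by Krt5 (57.9 ± 9.23 CPM per kilobase), Krt17 (56.1 ± 5.14) and Krt14 (20.0 ± 0.842), keratin genes of basal epithelium (SD, n = 3 each). Of 13 tested, 12 were lowest in thymus 3, where 38.9% of all genes were. Among them 9 were also highest in thymus 2, where 25.4% of all genes showed both. Krt5 was at 129.6, 146 and 106 CPM in thymus 1, 2 and 3. The list's median log2 deviation in thymus 3 was -0.18, equal at this rounding to that of the 9 genes, while that of the cortical list was 0.05. GC content differed in the same sense, with a median of 56.8% for the medullary and 48.2% for the cortical genes tested. With the GC trend removed, the median deviation in thymus 3 was -0.13 for the medullary list, with 11 of 13 lowest there where 38.5% of all genes were, and 0.04 for the cortical list, with 2 of 10. Of the medullary list 2 genes were below 1 CPM in every thymus, Ivl and Ccl21a. Ccl21a, which has near-identical copies, had 0 counts in all 3 libraries.

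General epithelial genes were led by the simple keratin genes Krt18 (174 ± 15.9 CPM per kilobase) and Krt8 (78.1 ± 1.21) and the E-cadherin gene Cdh1 (6.90 ± 0.576; SD, n = 3 each). Of the 10, 6 were lowest in thymus 3, where 38.9% of all genes tested were. Relative to the summed level of this list in the same library, a scale chosen with the values in view, 5 of the 9 genes remained lowest in thymus 3. These were Foxn1, Aire, Fezf2, Pax1 and Epcam. The share of all genes on that scale was not computed, so the count has no background to be read against. The sums, 474, 510 and 450 CPM in thymus 1, 2 and 3, were mostly Krt18 (245, 276 and 231 CPM) and Krt8 (152, 156 and 151 CPM). On that scale Foxn1 stood at 0.0383, 0.0447 and 0.0351 and Prss16 at 1.87, 1.70 and 2.14 in thymus 1, 2 and 3.

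**Figure D4:**
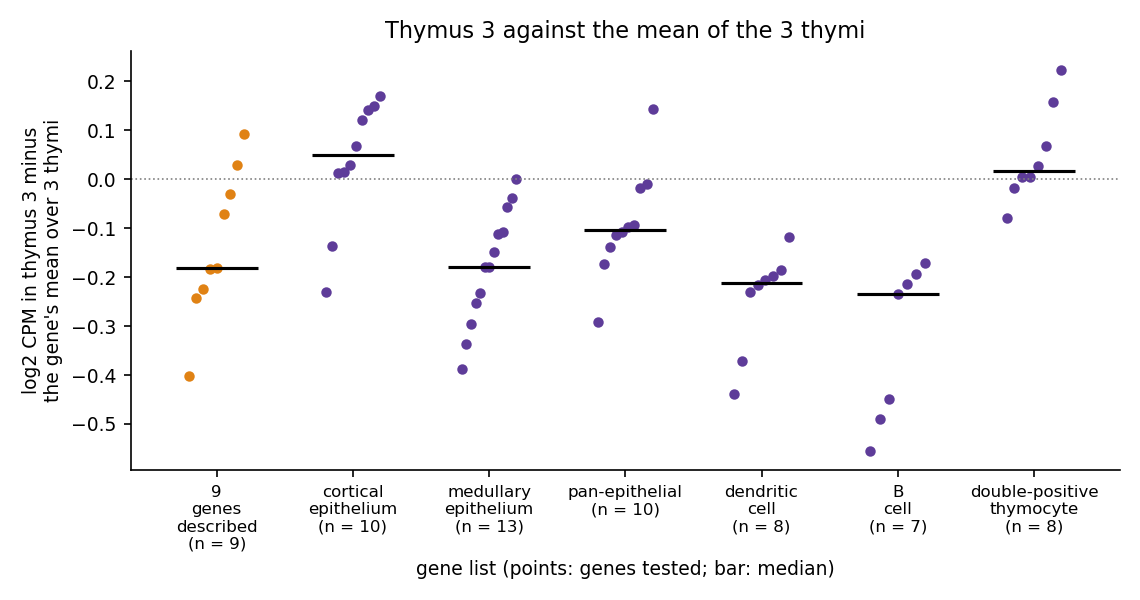
Log2 CPM in thymus 3 minus the gene's mean over the 3 thymi, one point per gene tested, with the median of each list as a bar. The medians are -0.18 for the 9 genes and for medullary epithelium, 0.05 for cortical epithelium, -0.21 for dendritic cells, -0.235 for B cells and 0.02 for double-positive thymocytes.

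Genes of pouch patterning were low. Of 13, 4 exceeded 10 CPM in every thymus and 4 were below 1 CPM in every thymus, among them Tbx1 with 8, 4 and 3 reads. The LIM-homeobox gene Isl1, one of the higher genes of the list, was at 3.67 ± 0.212 CPM per kilobase (SD, n = 3).

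Nuclear partners of AIRE are expressed widely, and all 11 listed exceeded 10 CPM in every thymus. They were led by Mbd1 (24.4 ± 1.12 CPM per kilobase), whose protein binds methylated DNA, the elongation kinase gene Cdk9 (21.3 ± 0.718) and Daxx (20.6 ± 1.40; SD, n = 3 each). Of the 11, 5 were lowest in thymus 3, where 38.9% of all genes tested were. Aire itself, at 7.06 ± 1.22 CPM per kilobase, was below 9 of them on average, with Prkdc and Hipk2 lower.

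Self-antigen genes that depend on these regulators in mouse ranged from 0 reads to more than 10 CPM in whole thymus. Of 5 Aire-dependent genes found, 3 were below 1 CPM in every thymus, with insulin 2 (Ins2) at 2, 4 and 3 reads and Rbp3 at 0 in all 3 libraries. The casein gene Csn2 was at 11.8, 15.6 and 8.79 CPM in thymus 1, 2 and 3, high and low in the same thymi as Aire. The trefoil factor gene Tff3 had 23, 33 and 19 reads, or 0.755, 1.12 and 0.770 CPM, and was thus highest in thymus 2 and lowest in thymus 1. Per kilobase the level of Tff3, 1.79 CPM, was close to that of Csn2, 1.74 CPM. Of 7 Fezf2-dependent genes, 4 were below 1 CPM in every thymus, and Maoa led the list at 14.7, 12.2 and 16.7 CPM, which is not the order of Fezf2. Krt10, at 4.37, 5.89 and 4.21 CPM in thymus 1, 2 and 3, had the order of Fezf2. Resp18, at 1.48, 2.01 and 2.03 CPM, did not. Spt1, a salivary gene on the first list, was not matched by symbol and is not analysed here.

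Over the 7 epithelial, antigen and partner lists 62 genes had enough reads to test, and 0 were called by edgeR's quasi-likelihood test, by goodness of fit at the trended dispersion or by the DESeq2 dispersion check. At an unadjusted p under 0.05 by the first of these tests there were 3 of the 62, or 4.84%, where 4.42% of all genes were. These were Krt5, the transcription factor gene Spib and Csn2, each with an adjusted p of 0.984 by edgeR.

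Other cell types share some of these genes, and their markers moved between thymi too. LY75 and EPCAM are also made by some dendritic cells, and AIRE by some thymic B cells. All 8 dendritic cell genes and all 7 B cell genes were lowest in thymus 3, where 38.9% of all genes tested were. Summed levels in thymus 1, 2 and 3 were 150, 141 and 113 CPM for dendritic cell genes. For B cell genes they were 116, 111 and 85.4 CPM. Both lists were highest by sum in thymus 1, then thymus 2, then thymus 3, which is the order of Epcam and not that of Foxn1 or Aire. Single genes differed, and some were highest in thymus 2 and lowest in thymus 3, as Aire and 25.4% of all genes tested were. These were 3 of the 8 dendritic cell genes (Sirpa, Batf3 and Xcr1) and 3 of the 7 B cell genes (Blk, Cd22 and Pax5). Ly75, at 22.0 ± 0.733 CPM per kilobase, stood above each of the 8 dendritic cell genes, of which Sirpa led at 12.5 ± 1.43 (SD, n = 3 each). The part of these cells in the levels of the 9 genes, or of the medullary list with Cd40, Cd80, Spib and Relb, was not tested. Nor was the part of these or other cells in the levels of the cortical list.

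Genes of skin, which also uses Foxn1 and Trp63, were mostly low. In every thymus, 6 of 7 skin and hair follicle genes were below 1 CPM. The list summed to 8.76 to 9.64 CPM, mostly from Sbsn, at 6.70, 6.20 and 8.305 CPM in thymus 1, 2 and 3. Of 7 thyroid and airway genes 5 were below 1 CPM in every thymus, and the list summed to 3.28 to 4.90 CPM. Pth, the hormone gene of the parathyroid gland, which arises from the same pouch, was at 75.3, 31.8 and 46.3 CPM in thymus 1, 2 and 3, with 94.1, 46.5 and 63.4 CPM over the 4 genes of the list. Gcm2 and Casr, genes of that gland's identity and calcium sensing, were below 1 CPM in every thymus. Chga, the remaining gene of the list, was at 17.5, 13.55 and 15.8 CPM in thymus 1, 2 and 3, the order of Pth. Goodness of fit at the trended dispersion and the DESeq2 dispersion check called Pth variable. The quasi-likelihood test of edgeR did not (adjusted p = 0.312). Which cells made the Pth and Chga reads was not tested. Pth was lowest in thymus 2, where Foxn1, Aire, Fezf2 and Pax1 were highest.

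Mesenchymal genes summed to 161, 133 and 165 CPM, and endothelial genes to 113, 125 and 102 CPM, in thymus 1, 2 and 3. The mesenchymal sums were mostly Dcn (108, 79.0 and 108 CPM) and the endothelial sums mostly Pecam1 (102, 113 and 92.0 CPM). Which cells made these reads was not tested. Double-positive thymocyte genes, the defining markers of the tissue, were all above 10 CPM in every thymus (8 of 8), with sums of 11009, 10557 and 11240 CPM. Their median log2 deviations were -0.02, -0.01 and 0.02 in thymus 1, 2 and 3.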

How the data were processed

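Whole-thymus RNA from 3 control libraries was sequenced from TruSeq Stranded mRNA preparations, per the labels' protocols. The authors deposited raw read counts per gene in 3 columns (either strand, gene strand, reverse strand), with no normalisation. The submitters' processing notes name STAR 2.5.3a, DESeq2 and GRCm38. The annotation release and filters were not stated in any source used. The reverse-strand counts were analysed, and summary lines entered no library size. Of 52636 identifiers, 52489 matched GENCODE M21, which gave symbols, positions (1-based), exon lengths and GC content.

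In R 4.3.3, edgeR 4.0.16 filtered low counts (minimum 10, total 15), leaving 16548 genes, and computed TMM factors. The group has 1 condition, so variability was tested with an intercept-only robust quasi-likelihood fit (one-sided F against the trended prior) and with Poisson goodness of fit, both with Benjamini-Hochberg adjustment over all genes, and tested on simulated data. Deviations used log2 CPM with a prior count of 2. Counting intervals are exact binomial at 95%, come from the counts of a single library each and cover only counting error. Molecular identifiers were not used, so even that error may be larger than the intervals show. DESeq2 1.42.0 gave alternatives. GC trends were removed by lowess (span 0.3), for the lists by a choice made with the data in view. The 9 genes, the lists and the tests were chosen with earlier results of these data known. From the cortical, medullary, general epithelial and AIRE partner lists the 3 genes highest per kilobase were named. Other genes were named only to give a count, a contrast in direction or a marker, and were chosen after their values were seen. A few genes of these lists are not reported here.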

Additional observations from a re-analysis of the deposited data

How the results depend on the processing

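The count of variable genes over all genes, 10 in the analysis as reported, was 20 with library totals, 285 with no filter, 122 by goodness of fit at the trended dispersion and 81 by DESeq2 dispersion outliers, and 23 to 137 with 1 library left out. None of these alternatives called any of the 9 genes. The count beyond counting noise, 7188, was 3768 to 6579 with 1 library left out, and 4 to 8 among the 9 genes; the other alternatives kept 8. With the longest transcript as length, Prss16 was 50.3 times Foxn1, Aire 1.55 times Foxn1, Pax1 7.85 times Pax9 and Trp63 1.52 times Foxn1; for Foxn1 both lengths are the same, and for the other genes named here merged exons are longer. With unstranded counts Aire was 1.13 times Foxn1. The mean levels of the 9 genes moved by less than 1 SD, taken over the 3 libraries, under the scaling and strand alternatives. They also did with 1 library left out. Apart from rescaling, a mean of 3 values cannot move further than that when 1 is dropped, so nothing is drawn from it. Among the other scalings, the largest shift of the median of all genes was -0.0417 on the log2 scale (thymus 3, library totals). No paired analysis was possible because there is 1 group. Depth limits the self-antigen genes: with 0 counts, up to 0.0985 to 0.122 CPM cannot be told from absence.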
